A study of Homo sapiens with 6 samples.

Results

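Complexes II to V are the part of the mitochondrial respiratory machinery that follows and accompanies complex I. Their genes were taken by symbol: the 4 SDH subunits and the SDHAF factors of complex II, the UQCR and UQCC genes and CYC1 of complex III, the numbered COX and COA genes with SURF1, SCO1 and SCO2 of complex IV, and the ATP5 genes of complex V. The rule found 72 of the 17687 genes in the table. By their known roles, 44 encode subunits or copies of subunits and 27 encode assembly factors or regulators, among them the supercomplex factor COX7A2L and the ATP synthase inhibitor ATP5IF1. The last gene, ATP5MF-PTCD1, is a read-through of the subunit gene ATP5MF into its neighbour PTCD1. The symbol rule itself uses no measured value. Subunits that mitochondrial DNA encodes are not among them.

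The cells were KHM-5M, a line of anaplastic thyroid cancer. The control group received PBS, the SS group sodium selenite, and the SS+NAC group sodium selenite together with NAC (N-acetylcysteine, an antioxidant and a source of cysteine). Each group had 2 libraries, and all of them came from this 1 line in the same medium. The methods call them biological replicates, the labels do not say whether they came from separate cultures, and neither gives the dose or the time of the sequenced cells. The SS titles carry a bare number, which was not taken for a dose.

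Complex II oxidises succinate and passes the electrons to ubiquinone. Complex III hands them on to cytochrome c, and complex IV, cytochrome c oxidase, delivers them to oxygen. Complexes III and IV pump protons, and complex V, the ATP synthase, lets the protons back through its rotating c ring to make ATP. Assembly factors are not part of the finished complexes. They insert heme, copper and iron-sulfur clusters, guard unfinished parts, or support the translation of the subunits made inside the mitochondrion. Sodium selenite is reduced by thiols such as glutathione, a reaction that can generate reactive oxygen species.

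The libraries held 17645545 to 23810056 expected counts each. The chi-square per degree of freedom between replicates was 3.05 in control, 7.12 in SS and 11.7 in SS+NAC, above sampling noise, so each library was kept. The share of all counts that fell on the members was 0.878% and 0.891% for control, 1.09% and 1.15% for SS, and 0.870% and 0.852% for SS+NAC. Both SS libraries lay above the other 4. Of the thyroid markers, PAX8 had 104 to 134 TPM (a level scaled for transcript length and depth) in each library, whereas TG, NKX2-1, SLC5A5 and FOXE1 had at most 1.59 TPM. Of the epithelial markers, KRT8 and KRT18 were high (731 to 1398 TPM), EPCAM had 3.85 to 6.07 TPM and CDH1 at most 0.29 TPM. Of the mesenchymal markers, VIM was high in all libraries. CDH2 had 48.2 and 52.3 TPM in control, 35.2 and 30.9 in SS, and 51.6 and 53.7 in SS+NAC, and FN1 had 1131 and 1111, then 889 and 661, then 1405 and 1810. Both were thus lowest in the SS libraries, and their part in the results was not tested. The leukocyte and endothelial markers had at most 2.14 TPM. Since RNA was measured in bulk, a change in the RNA of each cell and a change in the mix of cells cannot be told apart.

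In control cells the subunits stood well above the factors that assemble them. The median level was 299 TPM over 42 subunits and 41.2 TPM over 27 assembly factors, on a scale that allows for transcript length. All of the 20 members with the highest levels were subunits. ATP5MC2, which encodes the c ring, came first with 1185 and 1190 TPM in the control libraries, and COX8A, a small subunit of complex IV, came next with 1096 and 1117 TPM. The catalytic beta subunit ATP5F1B followed with 1004 and 1028 TPM. These 3 did not overlap in the control libraries, and their order was the same with FPKM in place of TPM and with either control library alone.

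The lowest assembly factors were COX19 (4.79 and 4.66 TPM) and COX18 (7.90 and 6.38 TPM), of which the first serves copper delivery and the second the insertion of MT-CO2 into the membrane. Of the 27 assembly factors, 21 lay below SDHC, whose 75.6 and 78.2 TPM were the lowest of the clearly expressed subunits. This place of SDHC rests on an effective length of 2864 bases, whereas its median annotated transcript has 460. In CPM (counts scaled for depth, not for length), its control mean of 112 was above those of ATP5ME (45.0) and ATP5MD (58.1). ATP5IF1 was the highest gene outside the subunits (237 and 221 TPM). Among the complexes, the subunit median was 154 TPM for complex II, 203 for III, 644 for IV and 349 for V.

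**Figure D1:**
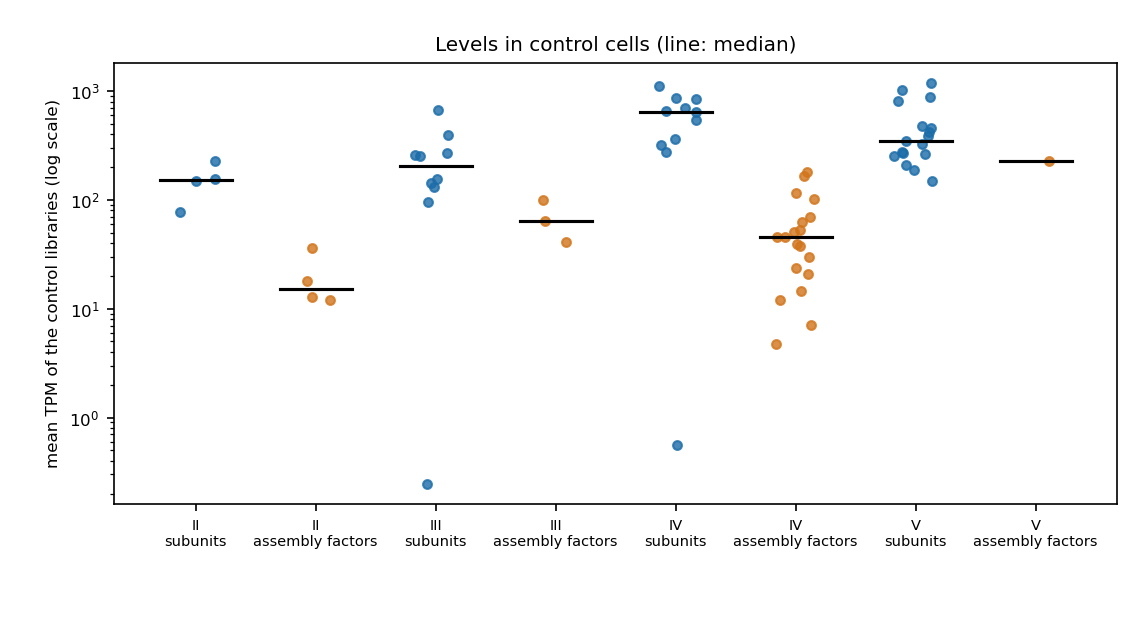
Mean TPM of the 2 control libraries on a log axis, 1 point for each tested gene, for subunits (blue) and assembly factors (orange) of each complex, with the median as a line. The medians of 299 TPM for subunits and 41.2 TPM for assembly factors separate the classes, and the lowest points are UQCRHL and COX6B2.

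Where several genes encode 1 subunit, 1 or 2 of them carried most of the summed TPM. The c ring subunit is encoded by ATP5MC1, ATP5MC2 and ATP5MC3, whose products differ in the targeting sequence that is cut off. ATP5MC2 gave 64.1% to 68.4% of their summed TPM over the 6 libraries, ATP5MC1 23.9% to 27.9% and ATP5MC3 7.51% to 8.36%. The share of ATP5MC3 rests on an effective length of 2688 bases, whereas its median annotated transcript has 842. In CPM, which makes no allowance for length, the control mean was 204 for ATP5MC3 and 131 for ATP5MC1. The order of these 2 genes therefore depends on the length used. COX6B2 and COX7A1, the isoforms known from testis and from muscle, gave at most 0.154% and 0.0533% of their families. UQCRHL, a near-identical copy of the hinge protein gene UQCRH, gave at most 0.635%. The second genes of other pairs in complex IV, among them COX4I2 and COX6A2, were not found by symbol among the genes in the table.

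The comparison of SS with control asks what selenite did to these genes. Nearly all subunit genes rose by a similar and moderate amount, while the assembly factors were split. With an offset for transcript length, described further on, 4 of 42 subunits and 1 of 27 assembly factors were called higher, beside 4.19% of all tested genes. The medians with the offset were 0.05 for the subunits and 0.07 for the assembly factors. Without the offset, of the 70 members that passed the filter on low counts, 57 were higher in SS, 3 were lower and 10 were not called (edgeR quasi-likelihood test, Benjamini-Hochberg adjusted p of at most 0.05 over all tested genes). Of all 14005 tested genes, 18.6% were higher and 21.4% lower. COX7A1 and ATP5MGL, a copy of ATP5MG, had too few counts to be tested.

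Among the subunits, 40 of 42 were higher in SS and 0 were lower. These counts include UQCRHL, which passed the filter only through its SS libraries, and without it 39 of 41 subunits and 56 of 69 members were higher. The median log2 fold change was 0.53 for subunits and 0.34 for the 27 assembly factors, of which 16 were higher and 3 lower, beside 0.00 over all tested genes. The difference between the 2 class medians was 0.18, and no test was made of it. Leaving UQCRHL aside, the called subunits rose by 1.16-fold (SDHA) to 1.56-fold (ATP5MC1), with a median of 1.45-fold. In 41 of 42 subunits and 21 of 27 assembly factors, the lower SS value exceeded the higher control value, as it did in 36.3% of all tested genes.

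The rise was larger in SS replicate 2. The median log2 difference of the subunits from the control mean was 0.43 in SS replicate 1 and 0.60 in SS replicate 2, and that of the assembly factors 0.26 and 0.40. In SS+NAC the subunit medians were -0.05 and -0.13, and in the control libraries they were within 0.02 of 0. Without SS replicate 2, the median log2 fold change was 0.42 over the subunits and 0.25 over the assembly factors.

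**Figure D2:**
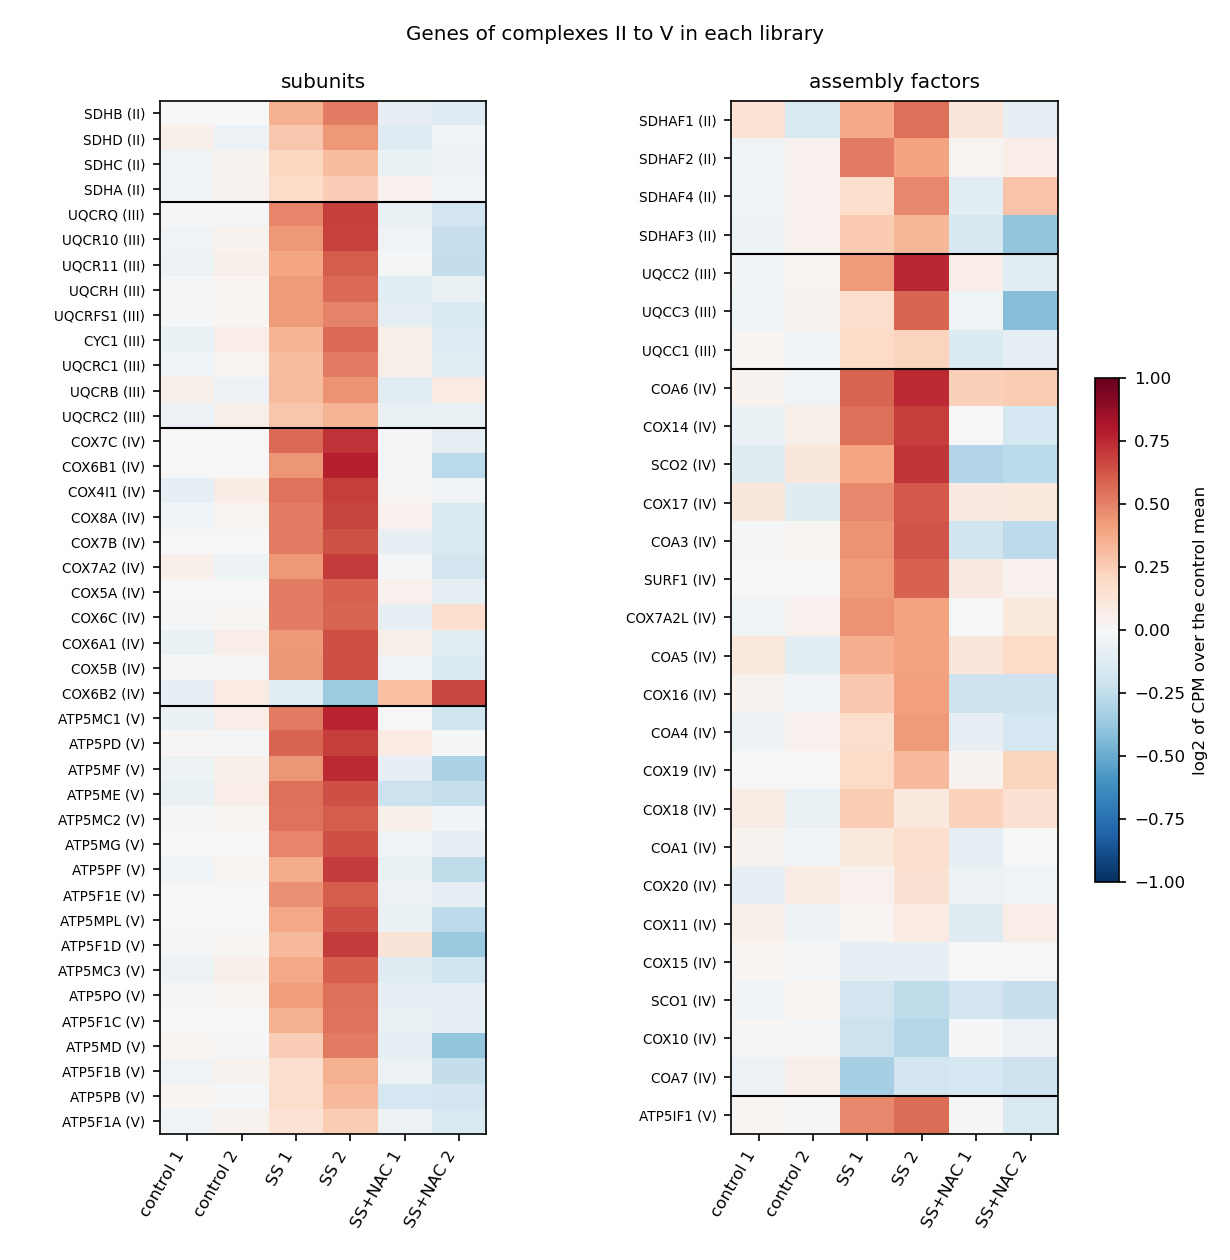
Each row is 1 tested gene and each column 1 library, and colour gives the log2 ratio of CPM (counts scaled for depth) to the mean of the control libraries, with the complex in brackets and UQCRHL and the read-through gene left out. The SS columns are red for all subunits except COX6B2, and COX10, SCO1, COA7 and COX15 are blue in both SS columns among the assembly factors.

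In complex II, all 4 subunits were higher in SS. SDHB, the iron-sulfur protein, had 131 and 131 CPM in control, 167 and 187 in SS, and 123 and 120 in SS+NAC. The rise of 0.44 (log2, standard error 0.0775, edgeR adjusted p = 0.00171) was the largest of the 4 without the length offset. With the offset SDHB was at 0.04, and SDHC (0.26) was the only 1 of the 4 that was called. SDHA, the flavoprotein that oxidises succinate, had 214 and 224 CPM in control, 249 and 260 in SS, and 226 and 213 in SS+NAC. A rise of 0.22 (log2, standard error 0.0742, edgeR adjusted p = 0.0398) was the smallest of all subunits called without the offset. The SS libraries of both genes lay above the other 4 libraries in CPM. In TPM, whose median over all tested genes was shifted by -0.26 (log2) in SS against control, this held for SDHB only. SDHA had 148.3 and 152.3 TPM in control, 148.1 and 141.7 in SS, and 155.4 and 156.5 in SS+NAC.

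Of the 4 factors of complex II, 2 were called higher, and 0 with the length offset. SDHAF2, which attaches flavin to SDHA, had 21.3 and 22.7 CPM in control and 31.6 and 29.1 in SS, and SDHAF1, which brings iron-sulfur clusters to SDHB, had 11.2 and 9.14 CPM in control and 13.2 and 14.9 in SS. Their SS libraries lay above those of control (edgeR adjusted p = 0.00233 and 0.0187). SDHAF3 and the SDHA chaperone SDHAF4 were not, with log2 fold changes of 0.30 and 0.33 (edgeR adjusted p = 0.0642 and 0.226).

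In complex III, the 9 subunit genes other than UQCRHL and the 3 UQCC factors for cytochrome b were higher in SS. With the length offset, 2 of the subunits (UQCRB and UQCRQ) and 0 of the factors were called. CYC1, cytochrome c1, had 396 and 435 CPM in control, 525 and 615 in SS, and 433 and 380 in SS+NAC (log2 fold change 0.46 in SS against control). UQCRFS1, the Rieske iron-sulfur protein, had 158 and 162, then 216 and 226, then 150 and 144 CPM (0.46). The core protein UQCRC1 had 218 and 227, then 276 and 317, then 232 and 207 CPM (0.41). For none of these 3 did an SS library overlap with any other.

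Without the length offset, UQCRQ, a small accessory subunit, changed most among the complex III subunits apart from UQCRHL. It had 106 and 104 CPM in control, 147 and 169 in SS, and 100 and 91.8 in SS+NAC, a log2 fold change of 0.59 in SS (standard error 0.0861, edgeR adjusted p = 0.000650). Among these subunits the core protein UQCRC2 changed least without the offset, from 167 and 181 CPM to 210 and 220 CPM (0.31). With the offset UQCRB was the highest of them (0.66, beside 0.31 for UQCRQ) and UQCRH the lowest (-0.04). UQCRH had 119 and 122 CPM in control and 162 and 178 in SS (0.50). UQCRHL had 2 and 0 counts in control, 20 and 14 in SS, and 3 and 9 in SS+NAC. With 3 counts in place of each control count, UQCRHL was 4.99-fold higher in SS than in control. This gene passed the filter only through its SS libraries, and reads of UQCRH can be assigned to it, so its value is uncertain. With 4.99-fold in place of its fitted value the subunit median was again 0.53.

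The UQCC factors rose unequally. UQCC2 had 42.3 and 43.8 CPM in control and 57.9 and 72.8 in SS (log2 fold change 0.60), UQCC3 had 39.7 and 41.9 and then 46.1 and 60.9 (0.39), and UQCC1 had 113 and 110 and then 128 and 130 (0.21). The edgeR adjusted p was 0.00202, 0.0493 and 0.0329. The SS libraries of UQCC2 and UQCC3 were far apart, but both lay above control.

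In complex IV, 10 of the 11 tested subunits were higher in SS, with a median log2 fold change of 0.57. With the length offset 0 of the 11 were called and the median was 0.01. COX7C had 164 and 165 CPM in control, 243 and 271 in SS, and 163 and 154 in SS+NAC. Its log2 fold change in SS was 0.64 (standard error 0.0790, edgeR adjusted p = 0.000301). COX4I1, the ubiquitous form of subunit 4, had 230 and 256 CPM in control, 354 and 392 in SS, and 246 and 238 in SS+NAC (log2 fold change 0.62). The subunits encoded by COX6B1, COX7B, COX8A, COX7A2 and COX6A1 rose by 0.54 to 0.62 on the same scale. COX6B2 was at 0.365 to 0.748 CPM in all libraries, and its log2 fold change of -0.23 had a standard error of 0.442 (edgeR adjusted p = 0.710).

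The assembly factors of complex IV did not move as 1 group: 10 of 19 were higher, 3 were lower and 6 were not called. With the length offset 1 was higher (COX19), 1 was lower (COA7) and 17 were not called. COA6, which serves the copper site of MT-CO2, showed the largest rise without the offset, while with it COA6 was at 0.16 and was not called. It had 16.9 and 16.2 CPM in control, 24.8 and 27.7 in SS, and 19.5 and 19.8 in SS+NAC (log2 fold change 0.66, standard error 0.0951, edgeR adjusted p = 0.000599). COX17, the copper chaperone, had 22.2 and 18.8 CPM in control, 28.6 and 31.3 in SS, and 21.8 and 21.9 in SS+NAC (0.55). Its value with the offset was -0.08, and it was not called. SURF1, an early assembly factor whose loss causes Leigh syndrome, had 12.3 and 12.2, then 16.5 and 18.4, then 13.0 and 12.6 CPM (0.51).

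SCO1 and SCO2, relatives that bring copper to the same site of MT-CO2, went in opposite directions. SCO2 had 23.4 and 27.6 CPM in control, 33.5 and 41.8 in SS, and 20.8 and 21.1 in SS+NAC. Its log2 fold change in SS against control was 0.56 (standard error 0.117, edgeR adjusted p = 0.00398). SCO1 had 56.4 and 58.9 CPM in control, 50.8 and 48.4 in SS, and 50.4 and 49.2 in SS+NAC, and was called lower (-0.22, standard error 0.0739, edgeR adjusted p = 0.0377). The SCO1 values of SS+NAC lay within the range of SS, while those of SCO2 lay below all control and SS values. The effective transcript length was 984 bases for SCO2 and 2805 for SCO1, and with an offset for length neither was called in SS against control (0.12 and -0.23, edgeR adjusted p = 0.501 and 0.0696).

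The other members called lower were COX10 and COA7. COX10 makes heme o, the precursor of the heme a of complex IV, and had 22.6 and 22.2 CPM in control, 19.3 and 18.4 in SS, and 22.1 and 21.5 in SS+NAC (log2 fold change -0.25, standard error 0.0878, edgeR adjusted p = 0.0437). COA7, a factor of the intermembrane space, had 30.9 and 33.3 CPM in control, 25.5 and 28.3 in SS, and 28.4 and 27.8 in SS+NAC (-0.26, standard error 0.0874, edgeR adjusted p = 0.0381). COX15, which turns heme o into heme a, was not called, with 44.0 and 42.9 CPM in control and 41.0 and 41.1 in SS. With at least 10 counts required in every library, with the DESeq2 Wald test or with a replicate block, none of COX10, SCO1 and COA7 was called lower, nor without any 1 of the SS or control libraries. COX11, COX18, COX19, COX20 and COA1 were not called either, with log2 fold changes of 0.05, 0.18, 0.26, 0.10 and 0.15.

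In complex V, 16 of 17 tested subunits and ATP5IF1 were higher in SS. With the length offset 1 of the 17 subunits was called (ATP5MC3), the subunit median was 0.04 and ATP5IF1 was at -0.01. The 3 genes of the c ring were each higher without the offset, while with it ATP5MC1 (0.08) and ATP5MC2 (0.04) were not called. ATP5MC1 had 125 and 137 CPM in control, 187 and 222 in SS, and 130 and 114 in SS+NAC (log2 fold change 0.64), and ATP5MC2 had 369 and 379, then 545 and 569, then 386 and 366 (0.57). ATP5MC3 had 197 and 210, then 266 and 308, then 187 and 177 (0.50). Without the offset, the alpha and beta subunits of the catalytic head and the stalk subunit ATP5PB (0.25) moved least. With it the lowest subunit was ATP5MD (-0.23), and ATP5PB was at 0.10. ATP5F1B had 929 and 972 CPM in control, 1062 and 1215 in SS, and 911 and 804 in SS+NAC (0.26, standard error 0.0951, edgeR adjusted p = 0.0499). ATP5F1A had 368 and 388, then 418 and 452, then 365 and 341 CPM (0.20, standard error 0.0795), and missed the limit with an edgeR adjusted p of 0.0656.

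By part of the enzyme, the median log2 fold change without the length offset was 0.45 for the 5 subunits of the F1 head and 0.51 for the 4 of the peripheral stalk. It was 0.57 for both the 3 genes of the c ring and the 5 small membrane subunits. The medians with the offset were 0.04 for the F1 head, 0.07 for the stalk, 0.08 for the c ring and -0.01 for the membrane subunits. ATP5IF1, which blocks the reverse reaction of the enzyme, had 74.4 and 72.1 CPM in control, 102 and 108 in SS, and 73.9 and 65.7 in SS+NAC (0.52). ATP5MF-PTCD1 had 6.67 and 5.97 CPM in control, 10.5 and 16.3 in SS, and 7.16 and 16.4 in SS+NAC. The SS+NAC libraries of this gene were far apart, 1 near control and 1 near the higher SS library, and its reads can be shared with ATP5MF and PTCD1.

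The comparison of SS with SS+NAC shows what the antioxidant changed in the presence of selenite. It shares the SS libraries with the comparison above and so is not independent of it. The members were again higher in SS: 57 of 70 were called higher and 0 lower, where 19.6% of all tested genes were higher and 23.1% lower. Of the subunits, 41 of 42 were higher, with a median log2 fold change of 0.61, and of the assembly factors, 16 of 27, with a median of 0.41. Without UQCRHL, 56 of 69 members and 40 of 41 subunits were higher. With the offset for transcript length, 15 of 70 members were higher and the medians were 0.13 and 0.04. In 60 of the 70 members both SS libraries lay above both SS+NAC libraries, compared with 32.3% of all tested genes.

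The sizes were mostly like those against control. COX7C differed by 0.70 and SDHA by 0.22 on the log2 scale, where SS against control gave 0.64 and 0.22. With the offset for length COX7C was not called in either (-0.02 and 0.01). SCO2 had the largest value of the assembly factors, 0.85 (standard error 0.117, edgeR adjusted p = 0.000526), against 0.56 compared with control. SDHAF3 was called here, with 14.99 and 15.8 CPM in SS and 11.2 and 9.51 in SS+NAC (0.57, edgeR adjusted p = 0.00305). For SCO1 and COA7, on the other hand, the values were -0.01 and -0.06 (edgeR adjusted p = 0.960 and 0.590). COX10 was at -0.21 (edgeR adjusted p = 0.0720).

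The comparison of SS+NAC with control asks whether the addition of NAC left a difference from control cells. None of the 70 members was called by edgeR or by the DESeq2 Wald test, where edgeR called 1.36% of all tested genes higher and 0.657% lower in SS+NAC. The median log2 fold change was -0.07 over the members, -0.08 over the subunits and -0.04 over the assembly factors. An unadjusted p under 0.05 was found for 10 of the 70 members, beside 16.1% of all tested genes, and 7 of these are assembly factors. SCO1 (-0.21, edgeR adjusted p = 0.193) was the one with the lowest p. The SS+NAC libraries lay below both control libraries in 33 of the 70 members (23.6% of all tested genes) and above them in 8 (24.0%). Without SS+NAC replicate 1, 3 members were called: ATP5MF-PTCD1 was higher, and UQCC3 and ATP5MD, a small membrane subunit of complex V, were lower. In that fit 7.61% of all tested genes were called in either direction.

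The fold change of the members in SS followed the length of their transcripts, as it did over all genes. The effective length, which the authors' FPKM implies for each gene, had a median of 789 bases in the subunits and 1328 in the assembly factors. Between this length and the log2 fold change in SS against control, Spearman's rho was -0.72 over the 42 subunits, -0.78 over the 27 assembly factors and -0.68 over all 14005 tested genes, which share their libraries and are not independent. In the eighth of all genes with the shortest transcripts, 183 to 1409 bases, the median log2 fold change was 0.46 and 69.4% were called higher. This eighth held 31 of the 42 subunits, with a median of 0.55, and 14 of the 27 assembly factors, with a median of 0.52. The 3 members called lower have effective lengths of 2119 (COA7), 2805 (SCO1) and 3025 bases (COX10). In the eighth of 2480 to 3047 bases, where SCO1 and COX10 lie, the median over all genes was 0.03. In SS+NAC against control, rho was 0.09 over the subunits and -0.04 over all tested genes.

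**Figure D3:**
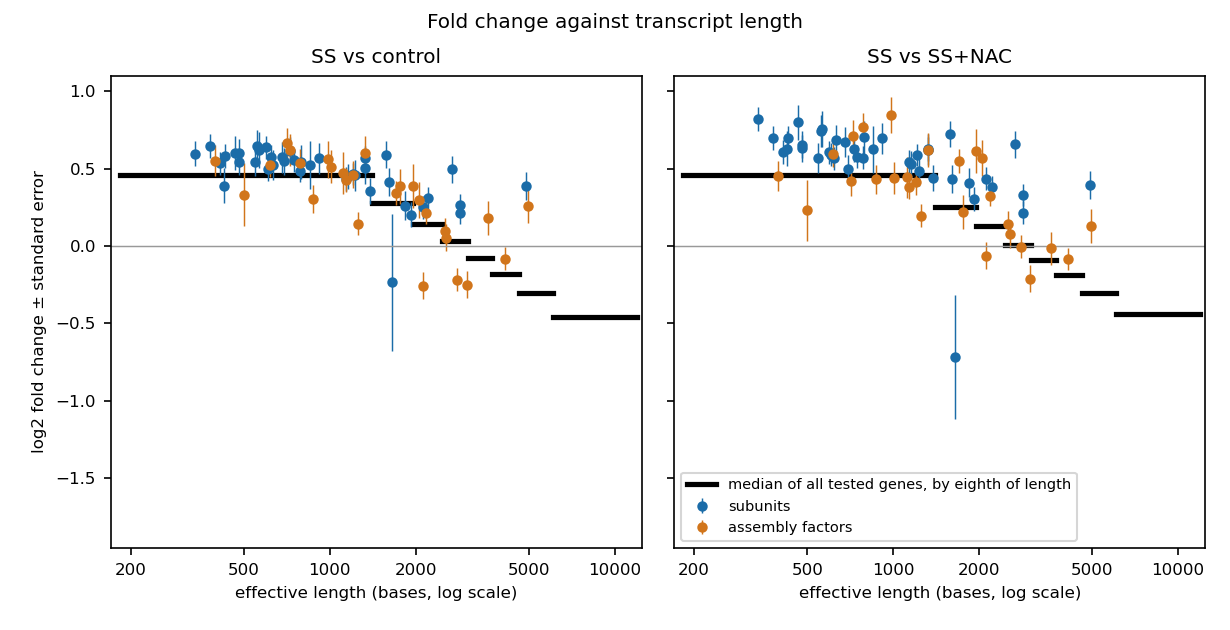
The log2 fold change of each gene with its standard error (points and bars) is plotted against its effective length on a log axis for SS against control and SS against SS+NAC, with UQCRHL and the read-through gene left out. Black bars give the median of all tested genes in each eighth of length, which falls from 0.46 in the shortest to -0.46 in the longest in SS against control (the last bar is cut off at the edge of the plot).

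The fit was therefore repeated with an offset that takes the length trend of each library out of the counts. With it, 6 members were called higher and 1 lower in SS against control, where 4.19% and 5.03% of all tested genes were. When single libraries were left out, the counts were 1 to 10 higher and 0 to 4 lower, with 1 higher without SS replicate 2 or control replicate 1, 2 without control replicate 2, 4 without SS replicate 1, and 10 higher and 4 lower without either SS+NAC library. The class medians were 0.05 for subunits and 0.07 for assembly factors. In SS against SS+NAC, 15 members were higher and 0 lower, where 7.03% and 7.39% of all tested genes were, and the medians were 0.13 and 0.04. Here the counts with a library left out were 2 to 20 higher and 0 to 4 lower, lowest without SS replicate 2 and highest without SS+NAC replicate 1, and 7 without SS replicate 1, 8 without either control library and 11 without SS+NAC replicate 2. In SS+NAC against control no member was called in the offset fit (10 had an unadjusted p under 0.05, beside 17.5% of all tested genes), beside 1.35% and 0.664% of all tested genes. Without SS+NAC replicate 1, 4 members were called there (ATP5F1B, ATP5F1D, UQCC3 and ATP5MF-PTCD1), beside 10.1% of all tested genes. The offset took out the trend of all genes (rho -0.00) and left one of the other sign in the subunits, where rho was 0.60. The part of RNA quality, library preparation or a true dependence on length in the trend was not tested.

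In SS against control, the members higher with the offset were the complex III subunits UQCRB (log2 fold change 0.66) and UQCRQ (0.31), ATP5MC3 (0.46), the membrane anchor SDHC of complex II (0.26), COX19 (0.54) and ATP5MF-PTCD1 (1.43). COA7 was lower (-0.41). Of these, only UQCRB was called again with each of the 6 libraries left out in turn, a check chosen after seeing the data. Several of these have long effective lengths for genes of small proteins: 4896 bases for UQCRB, 4955 for COX19, 2688 for ATP5MC3 and 2864 for SDHC. The median annotated protein-coding transcript of GENCODE release 29 has 645, 3666, 842 and 460 bases for the same genes. UQCRQ had an effective length of 1580 bases, although its longest annotated transcript has 839. UQCRB had 244 and 226 CPM in control, 293 and 322 in SS, and 218 and 249 in SS+NAC. SDHC had 109 and 115, then 130 and 139, then 107 and 107 CPM. COX19 had 11.9 and 11.8, then 13.6 and 14.9, then 12.1 and 13.9 CPM. In none of the 3 did the SS libraries overlap with control, but in COX19 SS replicate 1 lay below SS+NAC replicate 2.

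Which members stood out depended on the length that was used. With the GENCODE lengths in the offset, a choice made after seeing the data, 6 members were higher and 2 lower in SS against control, where 6.67% and 10.0% of all tested genes were. COX19 was higher with both lengths, at 0.54 and 0.44 (edgeR adjusted p = 0.0162 and 0.0250). UQCRB had -0.06 in place of 0.66 and ATP5MC3 0.11 in place of 0.46, neither of them called, and SDHC was called lower at -0.25. UQCRFS1, UQCRC1, ATP5F1E, COX18 and UQCRHL were called higher and COX10 lower with the GENCODE lengths only. Of these, UQCRHL passed the filter on low counts only through its SS libraries. In SS against SS+NAC, the 15 members higher with the deposited lengths were the subunits SDHA, SDHC, UQCRFS1, UQCRC2, UQCRB, UQCRQ, UQCR11, ATP5MC3, ATP5PB and ATP5MG and the factors SDHAF3, COX19, SCO2, COX16 and COA3. ATP5MC3 was higher with both lengths, at 0.64 and 0.27 (edgeR adjusted p = 0.00161 and 0.0232). UQCRB (0.67) and ATP5MC3 were called with the deposited lengths whichever library was left out. SCO2 (0.40 and 0.52), COX16 (0.32 and 0.41), a copper delivery factor, and COA3 (0.26 and 0.35), which supports MT-CO1, were also higher with both, as were UQCRQ (0.46 and 0.22), UQCRFS1 (0.22 and 0.75), ATP5PB (0.30 and 0.34) and SDHAF3 (0.42 and 0.35), which makes 8 members. COA3 was called with the deposited lengths in 0 of the 6 fits that left out a library, and UQCRFS1 and SDHAF3 in 1 each. With the GENCODE lengths 22 members were higher and 2 lower in this comparison, where 11.0% and 12.5% of all tested genes were. SDHC was one of the 2 lower (-0.25, edgeR adjusted p = 0.0354), COX10 the other (-0.32), and UQCRB was not called (-0.08, edgeR adjusted p = 0.556).

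**Figure D4:**
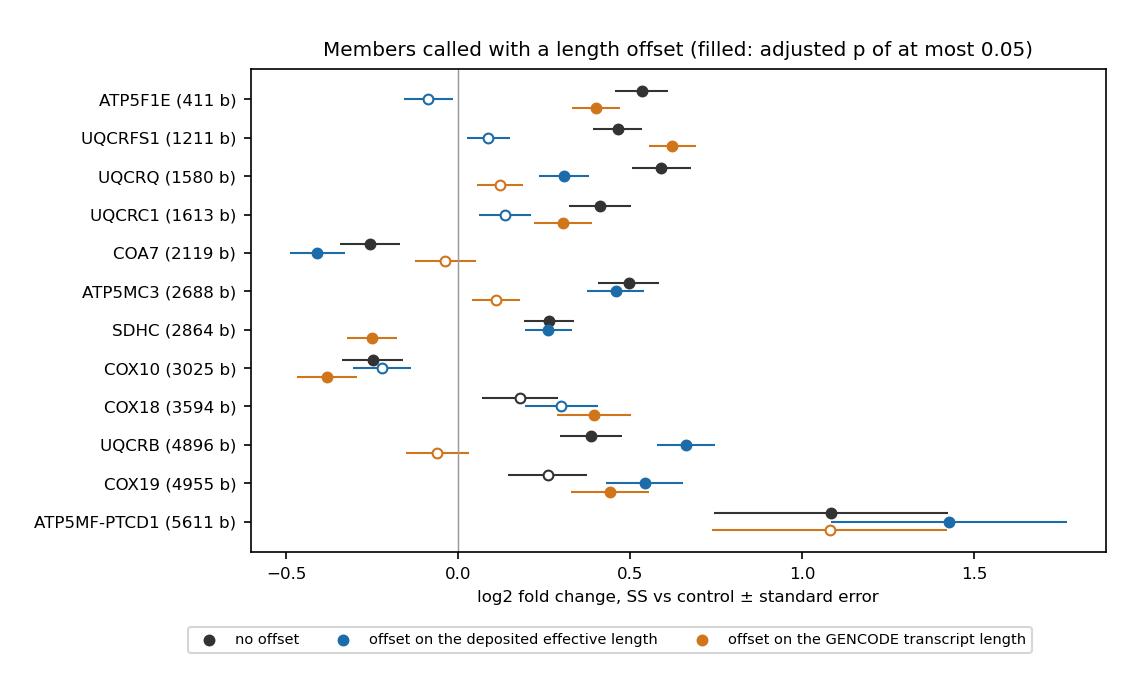
The log2 fold change with its standard error in SS against control for the members called with either offset except UQCRHL, ordered by effective length: without an offset (black), with the offset on the deposited effective length (blue) and with the offset on the GENCODE transcript length (orange). Filled points have an edgeR adjusted p of at most 0.05, and COX19 is the only gene with both offset points filled and on the same side of 0, while SDHC has them on opposite sides.

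The effective length of a gene can differ between libraries, since it depends on the transcripts that the reads were assigned to. Among the tested members, the assembly factors COA1 and COX18 had the lowest and the highest ratio of SS to control, 0.81 and 1.17. COA1, an early assembly factor of complex IV, had 1404 and 1371 bases in control, 1151 and 1101 in SS, and 1307 and 1280 in SS+NAC. COX18 had 3383 and 3708 bases in control, 3941 and 4381 in SS, and 3347 and 3182 in SS+NAC. The SS values did not overlap with the others in either gene. The use of single transcripts was not tested.

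Values for 3 other lists in SS against control are given beside these. Of the complex I subunits 35 of 38 were higher (median log2 fold change 0.54), of the mitochondrial ribosomal proteins 67 of 78 (0.44), and of the cytosolic ribosomal proteins 79 of 94 (0.49), with 4 of the last lower. With the length offset, 1, 6 and 6 of them were higher, which is 2.63%, 7.69% and 6.38% beside 4.19% of all tested genes. A difference between complexes II to V and these lists was not tested.

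Other genes of the pathway lie outside the symbol rule. A list of 39 tested genes was mostly for cytochrome c, ubiquinone synthesis and the assembly of complexes II to V. It also held NDUFA4, ETFDH, DHODH, TMEM186 and DMAC2. Of the 39 genes, 20 were higher, 2 lower and 17 not called in SS against control. Their median log2 fold change was 0.28. As shares, 51.3% were higher and 5.13% lower, beside 18.6% and 21.4% of all tested genes. The 2 lower ones were LYRM7, a factor for the Rieske protein (-0.38), and LRPPRC, which stabilises mitochondrial mRNA (-0.37). Their effective lengths are 6320 and 5361 bases, and with the offset neither was called (0.01 and -0.05). NDUFA4, a subunit of complex IV despite its name, rose by 0.56, with 119 and 118 CPM in control and 168 and 181 in SS. With the length offset, NDUFA4 (0.39), CYCS, which is cytochrome c itself (0.54), and TMEM70, a factor of ATP synthase (0.28), were higher. They made up 7.69% of the list, beside 4.19% of all tested genes. CYCS, with an effective length of 5611 bases, was not called without the offset (0.20, edgeR adjusted p = 0.0952). Of 14 tested regulators known for respiratory chain genes, 0 were higher and 5 lower in SS: GABPA, YY1, PPARGC1B, PPRC1 and CREB1. That is 35.7% of the list, beside 21.4% of all tested genes. GABPA, a subunit of the ETS factor NRF-2, had 34.2 and 30.8 CPM in control and 22.1 and 20.2 in SS (-0.62, edgeR adjusted p = 0.00408). NRF1 was not called (-0.15). With the offset, YY1 was lower (-0.29, edgeR adjusted p = 0.0344) and GABPA was not (-0.36, edgeR adjusted p = 0.0959), nor were PPARGC1B (-0.17), PPRC1 (0.03) and CREB1 (-0.12), so that 1 of the 14 (7.14%) was lower beside 5.03% of all tested genes.

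Since most members were called higher in SS without the length offset, the promoters of the members were searched for the letters bound by 2 of these factors. RefSeq promoter windows of 300 bases on GRCh38.p14, of which 250 lie before the start, were found for 57 of the 72 members, and where RefSeq lists several starts of a gene the first listed window was used. The ETS letters CCGGAAG, or CTTCCGG on the other strand, were in 25 of the 57 windows (43.9%) and in 10.7% of all 27305 RefSeq windows. The latter include genes that were not tested here, and the share over the tested genes alone was not taken. The NRF-1 letters GCGCATGCG, or CGCATGCGC, were in 8 of the 57 (14.0%) and in 2.10% of all windows. Matches on both strands may overlap and count once. For ETS the share was 45.5% of 33 subunits and 41.7% of 24 assembly factors. Both sets of letters were present in SDHD, COX6A1, COX17, ATP5PF and ATP5ME, which were called higher in SS without the length offset. With it none of the 5 was called, and COX6A1, COX17 and ATP5ME had log2 fold changes of -0.02, -0.08 and -0.06. Of the 3 members called lower, COX10 and SCO1 had the ETS letters in their windows, and COA7 had neither set of letters. These letters are in capitals in the following RefSeq stretches of GRCh38.p14, read 5′ to 3′ on the strand of the gene, for 2 subunits that rose and for COX10 and SCO1.
SDHD, NRF-1 letters, chr11:112086753-112086782, plus strand: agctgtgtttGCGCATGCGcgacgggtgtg
SDHD, ETS letters, chr11:112086785-112086814, plus strand: ccgcctctcgaCTTCCGGttcacccagcat
ATP5PF, NRF-1 letters, chr21:25735155-25735184, minus strand: cactcaaagaGCGCATGCGtacagagcaag
ATP5PF, ETS letters, chr21:25735066-25735095, minus strand: tgccaggggacCCGGAAGcacttaccctcc
COX10, ETS letters, chr17:14069374-14069403, plus strand: ctttgcggttcCCGGAAGtccttcaggcct
SCO1, ETS letters, chr17:10697558-10697587, minus strand: actccttccgaCTTCCGGaggaagcggaac
The letters begin 110 and 77 bases before the start of SDHD, 120 and 30 before that of ATP5PF, 119 before that of COX10 and 43 before that of SCO1. The listed start of ATP5PF that was used lies inside the span of the gene, which reaches to base 25735653 on this strand. SDHD, on chromosome 11, had 115 and 106 CPM in control and 133 and 150 in SS, and ATP5PF, the F6 subunit of the peripheral stalk on chromosome 21, had 103 and 107 CPM and then 136 and 171. A match in letters is a description of the sequence and does not show that a factor was bound.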

How the data were processed

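RNA of KHM-5M cells was sequenced in 6 libraries of 3 groups. Per the labels and methods, the authors captured polyadenylated RNA, made single-end reads, filtered them, mapped them with HISAT2 2.0.4 and estimated gene levels with RSEM 1.2.12; the processing notes also name Bowtie2 2.2.5. The deposited table holds the authors' expected counts, of which 44.8% were not whole, and their TPM and FPKM values for 17687 genes. Its columns of the authors' own comparisons (log2 fold changes, p-values and q-values) were not used.

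The members and all gene lists were chosen with earlier results of these data known. Expected counts were rounded, filtered with filterByExpr, scaled with TMM (0.920 to 1.07) and tested in edgeR 4.0.16 (R 4.3.3) with the quasi-likelihood test, all 6 libraries in 1 fit, group as the only term, and Benjamini-Hochberg adjustment over 14005 genes at 0.05. P-values measure the spread between these libraries (biological coefficient of variation 6.74%), which may be technical. CPM are on TMM-scaled library sizes. TPM is the deposited level, and its median over all tested genes was shifted by -0.26 (log2) in SS against control. The subunit median on this scale was 0.25, with 36 of the 42 subunits positive and 6 negative. The length offset was a lowess fit (span 0.3) of each library's deviation of log2 CPM (prior count 2) from the gene's mean over libraries on effective length, which is the share of counts divided by FPKM. GENCODE release 29 lengths were found for 95.9% of the genes and all 72 members. Gene positions and promoters are from RefSeq, GRCh38.p14. The fits were also run on simulated data, in which the changed genes were picked without regard to length. Such data cannot show whether the offset would remove a true change shared by short transcripts.

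Named genes were the highest and lowest of each class and complex, those called lower or with the offset, families, metal and heme factors, and catalytic subunits. Alternatives were DESeq2 1.42.0 size factors and Wald test, other count filters, a fit to the libraries of each comparison alone and a replicate block. Further ones were the offset, the offset with the block, Bonferroni adjustment, and leaving out each library. A fit with a library left out has a single library in that group, so its spread comes from the other groups alone. Figures were drawn in Python 3.11.15 with matplotlib 3.10.9.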

Additional observations from a re-analysis of the deposited data

How the results depend on the processing

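With 2 libraries a group, the precision rests on few samples. In SS against control, 57 members were higher and 3 lower, of which 40 higher were subunits and 16 higher and 3 lower assembly factors. With the length offset these were 6, 1, 4, 1 and 1, with the offset and a replicate block 4, 1, 2, 1 and 1, and with Bonferroni adjustment 0 throughout. The DESeq2 Wald test, at least 10 counts in every library and the replicate block each gave 0 lower members and 0 lower assembly factors. All genes called fell from 5609 to 1292 with the offset, 850 with the offset and block and 220 with Bonferroni. With the offset, and with it and the block, the subunit median was 0.052 and 0.051, the assembly factor median 0.073 and 0.073, and their difference -0.022 and -0.022 (from 0.18). Leaving out each library gave 39 to 59 higher and 0 to 3 lower members, 29 to 41 higher subunits, 10 to 17 higher and 0 to 3 lower assembly factors, 3118 to 6579 genes, and medians of 0.42 to 0.60 (subunits), 0.25 to 0.40 (assembly factors) and 0.16 to 0.20 (difference).

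In SS against SS+NAC, 57 members, 41 subunits and 16 assembly factors were higher: 15, 10 and 5 with the offset, 8, 6 and 2 with the offset and block, and 3, 3 and 0 with Bonferroni. All genes called fell from 5985 to 2019, 1349 and 191. The medians with the offset, then with the block too, were 0.13 and 0.13 (subunits), 0.043 and 0.045 (assembly factors) and 0.086 and 0.083 (difference). Leaving out each library gave 44 to 57, 34 to 40 and 10 to 16 higher and 3250 to 6339 genes, with a difference of 0.14 to 0.30. In SS+NAC against control, 282 genes were called, 40 with Bonferroni and 98 to 1086 with each library left out, with 0 to 1 higher and 0 to 2 lower members, 0 to 1 lower subunits and 0 to 1 lower assembly factors.

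With the offset the sign turned for 16 of 70 members in SS against control and 15 in SS against SS+NAC, of which 12 and 11 had been called without it and 0 were called with it. Those called without it included, with the values for the offset and for the offset and block, in SS against control ATP5IF1 (-0.013 and -0.014), COX17 (-0.078 and -0.078), COX6A1 (-0.020 and -0.019), COX7B (-0.030 and -0.0305) and UQCRH (-0.045 and -0.044), and in SS against SS+NAC ATP5MC2 (-0.0091 and -0.0097), COA6 (-0.12 and -0.12), COX17 (-0.25 and -0.25), COX6A1 (-0.044 and -0.044), COX7A2L (-0.014 and -0.013) and COX7C (-0.0155 and -0.0155). The others were COX5B, COA4, ATP5F1E and ATP5MD in both, ATP5PO, ATP5ME and ATP5MPL against control and COX6C against SS+NAC, and the largest of these was -0.23 (ATP5MD against control). The cause was not tested. The groups share replicate numbers only: deviations of same-numbered libraries correlated at 0.152 (control and SS), -0.254 and -0.317. The replicate block called 52, 55 and 0 members in the 3 comparisons.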
